A study of Mus musculus with 12 samples.

Results

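Fatty acid and sterol synthesis were followed through 36 genes of 18193 measured in lung tissue, picked by name and grouped by enzyme role: 14 of fatty acid synthesis, 5 of fatty acid activation and glycerolipid synthesis, 5 regulators and 12 of sterol synthesis. All 36 were found, through 84 probe sets that each carry a single gene symbol, and each gene was represented by its probe set with the highest mean over 12 arrays. The samples were 6 lung tumours that had arisen spontaneously in untreated B6C3F1 mice and 6 normal lungs of B6C3F1 mice, all aged 2 years, with 1 Affymetrix array for each. B6C3F1 is the first-generation hybrid of C57BL/6 females and C3H males that long-term toxicity studies use, so both groups share the strain, the age and the lack of treatment. The labels state neither the sex of the animals nor that each sample is a separate animal, and the p-values therefore measure the spread between these samples.

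Acetyl-CoA carboxylase and fatty acid synthase build palmitate from cytosolic acetyl-CoA with NADPH as the reductant, and elongases and desaturases then lengthen the chain and add double bonds. The mevalonate pathway uses the same acetyl-CoA to make squalene and then cholesterol. Both arms are under the sterol regulatory element binding proteins (SREBPs), membrane-bound transcription factors that Scap escorts to the Golgi and Insig proteins hold back in the endoplasmic reticulum. SREBP-1c is best known for fatty acid genes and SREBP-2 for sterol genes. In the lung, alveolar type II cells make fatty acids for the phospholipids of surfactant.

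Levels are signal intensities on the arrays' linear scale, scaled by the authors, and a level of one probe set is not set against that of another. Each difference is the tumour mean less the normal lung mean of log2(signal + 16), ± the standard error (n = 6 arrays in either group). The adjusted p-values come out of limma's fit, corrected over 45037 probe sets by Benjamini-Hochberg, with a threshold of 0.05. "Rose", "higher", "fell" and "lower" in tumours are used of genes that pass this test. The number of arrays limits the precision. Because tumour tissue and normal lung are mixtures, fewer cells of a type and less RNA per cell cannot be told apart.

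Tissue make-up moved with the groups. Summed signals of 9 type II cell markers (4 higher) were 112047 to 255409 in tumours and 122233 to 167606 in normal lungs. These markers thus had signal on every array, which does not show which cells carried it. The 10 endothelial markers, all lower, summed to 4850 to 13316 in tumours and 53029 to 71172 in normal lungs. Alveolar macrophage markers (9 genes, 5 higher and 1 lower) summed to 15752 to 73932 in tumours and 15767 to 22712 in normal lungs. Adipocyte markers (7 genes, 4 lower) summed to 420.0 to 813 in tumours and 1367 to 4096 in normal lungs. Lipe held much of these sums, averaging 309 ± 82.5 in tumours and 1125 ± 243 in normal lungs (SD, n = 6 each). Hepatocyte markers (10 genes, 2 lower) summed to 270 to 13197 in tumours and 390 to 25413 in normal lungs, and albumin was at 13843 and 13722 in normal lungs 2 and 4. The highest tumour sum was that of tumour 5, where Apob was at 7101 and albumin at 4901, with Fgb at 8.0. Apob was the only gene of the list with a positive difference, and it did not pass (1.93 ± 1.16). Xist, expressed from the inactive X chromosome of females, had signals of 12621 and 10184 in tumours 4 and 6. Tumours 1, 2, 3 and 5 had 109 or less, and normal lungs 7877 or more. The part of these differences in the results below was not tested, except where values without the arrays concerned are given.

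Promoter sequences of 27 of the 36 genes, each 250 bases before to 50 after a start site, were taken from RefSeq (GRCm38.p6). The set below shows Hmgcs1 and Sc5d, the sterol genes that rose and fell, beside Fasn and Me1, the fatty acid synthase and the NADPH-making enzyme that rose. Capitals mark matches on either strand to TCACNCCAC, a form of the sterol regulatory element, to CCAAT, the box bound by NF-Y, to CACGTG, an E-box, or to TGACNNNGC, the antioxidant response element.
Hmgcs1 promoter, chr13:119690101-119690400, plus strand: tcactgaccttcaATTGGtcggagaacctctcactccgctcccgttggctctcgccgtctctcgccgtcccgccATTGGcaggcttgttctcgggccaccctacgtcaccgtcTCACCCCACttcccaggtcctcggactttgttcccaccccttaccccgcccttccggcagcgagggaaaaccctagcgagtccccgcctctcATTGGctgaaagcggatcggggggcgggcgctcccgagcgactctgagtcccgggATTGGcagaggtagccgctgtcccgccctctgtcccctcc
Sc5d promoter, chr9:42264251-42264550, minus strand: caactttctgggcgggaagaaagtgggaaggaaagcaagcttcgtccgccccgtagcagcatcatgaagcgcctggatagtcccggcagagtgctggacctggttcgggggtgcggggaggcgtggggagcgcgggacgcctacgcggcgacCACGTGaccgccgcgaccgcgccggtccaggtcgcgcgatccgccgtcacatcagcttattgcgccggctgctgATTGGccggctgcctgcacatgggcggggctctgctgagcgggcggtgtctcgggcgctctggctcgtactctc
Fasn promoter, chr11:120824498-120824797, minus strand: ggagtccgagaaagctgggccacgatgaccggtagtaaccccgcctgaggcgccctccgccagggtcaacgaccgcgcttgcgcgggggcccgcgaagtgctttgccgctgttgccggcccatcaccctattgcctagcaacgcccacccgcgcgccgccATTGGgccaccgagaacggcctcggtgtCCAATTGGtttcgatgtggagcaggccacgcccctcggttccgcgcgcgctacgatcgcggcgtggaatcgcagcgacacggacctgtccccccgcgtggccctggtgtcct
Me1 promoter, chr9:86695865-86696164, minus strand: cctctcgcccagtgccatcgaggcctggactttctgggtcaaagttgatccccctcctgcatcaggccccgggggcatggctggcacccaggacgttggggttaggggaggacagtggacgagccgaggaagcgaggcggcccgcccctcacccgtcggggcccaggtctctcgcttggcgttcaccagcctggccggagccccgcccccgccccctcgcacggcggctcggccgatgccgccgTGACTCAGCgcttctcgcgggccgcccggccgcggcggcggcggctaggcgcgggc
The Hmgcs1 window held TCACCCCAC, whose first base lies 137 bases before the start, and 4 matches to CCAAT. In the Fasn window 3 matches to CCAAT were found, a pair of which overlap in the run CCAATTGG. Sc5d had CACGTG 98 bases before its start and 1 CCAAT match, and Me1 had TGACTCAGC 6 bases before the start shown, 1 of 2 listed for it. Hmgcs1 was the only gene among the 27 with a match to TCACNCCAC, which was in 1.24% of all 32851 promoters. CCAAT matches were in 23 of 37 promoters of these 27 genes (62.2%), against 37.4% of all promoters. The E-box was in 16.2% of the 37, against 7.15% of all promoters, and TGACNNNGC in 10.8%, against 12.4%. These shares were not tested, and a match is a description of letters, not of binding.

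In the fatty acid arm Me1, Fasn and Acly rose in tumours and Acacb and Elovl5 fell; in the sterol arm Hmgcs1 rose and Sc5d fell. The difference between the arms was not tested. Of the 36 genes 8 were higher and 5 lower. Over all genes 12.2% were higher and 17.5% lower, together 29.6%, beside 36.1% of the 36. The median difference of the 36 was 0.11, against -0.08 over all genes. For 7 of the 36 (19.4%) the 2 groups had no overlap, against 18.5% of all genes: 5 genes had every tumour above every normal lung (6.77% of all genes) and 2 had every tumour below (11.8% of all genes). Counted in both directions together, then, these genes changed about as often as genes in general. By direction, higher calls outnumbered lower ones among the 36, and the reverse held over all genes, which was not tested. Only 1 of the 36 was dimmer than the median probe set, whereas the shares over all genes include dim genes. The description below is of single genes.

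**Figure D1:**
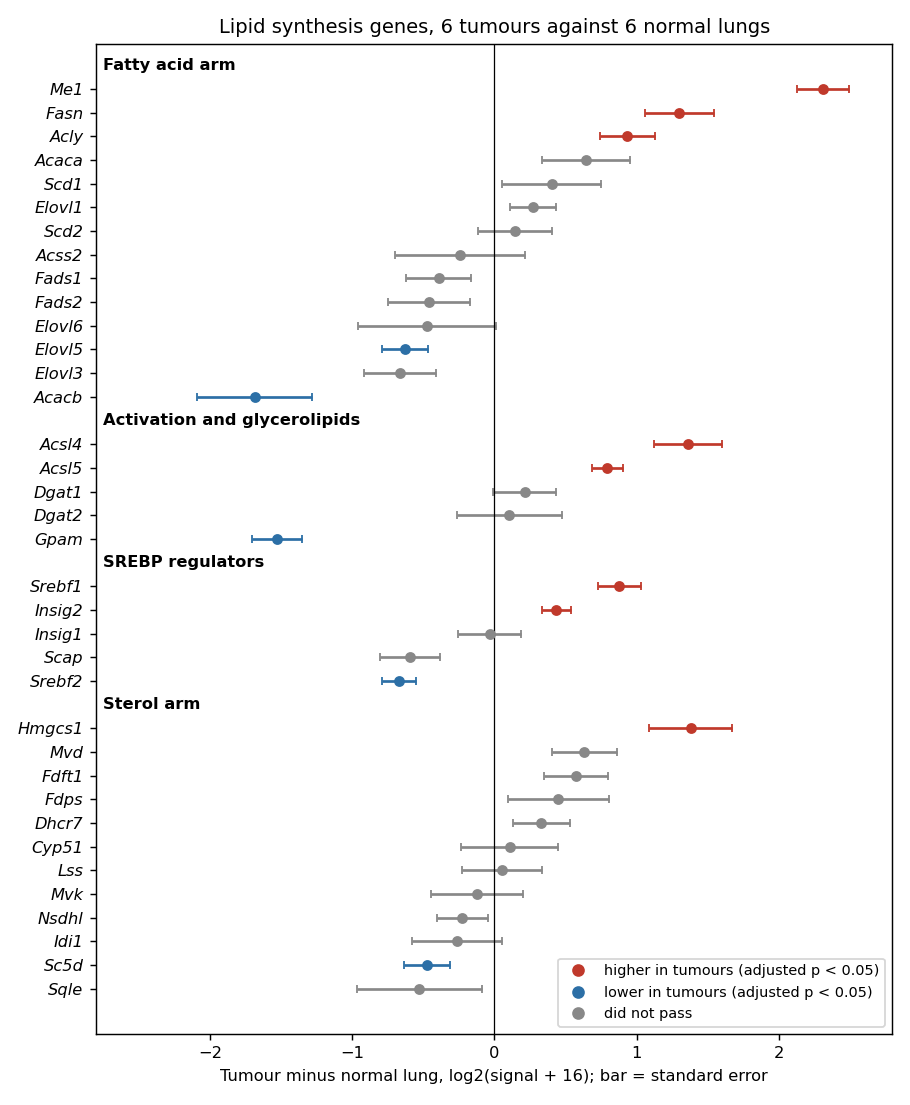
Difference of each of the 36 genes (tumours less normal lungs, log2(signal + 16) scale) with its standard error (n = 6 arrays per group), in blocks by role. Red points passed the test upwards and blue points downwards; differences range from 2.31 for Me1 to -1.68 for Acacb, and 10 of 12 sterol genes did not pass.

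Of the 6 genes that supply acetyl-CoA or NADPH or build palmitate, Me1, Acly and Fasn rose, Acacb fell, and Acaca and Acss2 did not pass. Me1, the cytosolic malic enzyme that makes NADPH, had signals of 6178, 8477 and 11189 (lowest, median, highest) in tumours and 1364, 1606 and 2305 in normal lungs. Every tumour lay above every normal lung, with means of 8633 ± 2442 in tumours and 1693 ± 330 in normal lungs (SD, n = 6 each) and a difference of 2.31 ± 0.18 (adjusted p = 5.54e-07). Its other probe set gave 2.40 ± 0.19. Acly, the ATP citrate lyase that makes cytosolic acetyl-CoA, was at 5074, 7848 and 14228 in tumours and 3745, 4183 and 4301 in normal lungs. Here too the groups did not overlap (0.94 ± 0.19, adjusted p = 0.00217), and normal lungs lay closer together than tumours. Of the 6 Acly probe sets the 3 brightest rose, and the mean over all 6 did not pass (0.47, adjusted p = 0.0527). That mean takes in dim probe sets with mean signals of 20.2 to 52.7.

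Fasn, the fatty acid synthase, was at 9589, 4437, 11602, 8289, 13625 and 5640 in tumours 1 to 6, against a lowest, median and highest of 2768, 3048 and 4533 in normal lungs. Tumour 2 lay inside the normal range and the other 5 tumours above it. The means were 8864 ± 3493 in tumours and 3400 ± 744 in normal lungs (SD, n = 6 each), and the difference was 1.30 ± 0.24 (adjusted p = 0.00109). Acaca, the cytosolic acetyl-CoA carboxylase that commits acetyl-CoA to fatty acids, was at 1361, 437, 1754, 1230, 2167 and 725 in tumours 1 to 6 and 556, 702 and 1046 (lowest, median, highest) in normal lungs. It did not pass the test (0.64 ± 0.31, adjusted p = 0.159), with 4 tumours above the highest normal lung and tumour 2 below the lowest. Without tumour 2 the difference was 0.91 (adjusted p = 0.0111). Acacb, the carboxylase at mitochondria that is known for restraining fatty acid oxidation, fell. Its signals were 23.2, 74.9 and 220 in tumours and 191, 239 and 488 in normal lungs, with 5 tumours below every normal lung (-1.68 ± 0.40, adjusted p = 0.00626). Normal lung 2, which also had the highest adipocyte markers, held the highest Acacb signal. Without normal lungs 2 and 4 Acacb stayed past the threshold (-1.57, adjusted p = 0.0344). Adipocyte markers summed to 1367 or more in every normal lung and to 813 or less in every tumour. Much of this came from Lipe, at 914 of the 1367 in normal lung 3, so the sums mainly follow 1 gene. Leaving out normal lungs 2 and 4 keeps the difference in the sums, and the part of adipocyte markers was not tested. With Eif2s3y, a Y-linked gene, as a covariate Acacb did not pass (-1.54, adjusted p = 0.0792). Acss2, which makes acetyl-CoA from acetate, averaged 828 ± 663 in tumours and 734 ± 101 in normal lungs (SD, n = 6 each) and did not pass (-0.24 ± 0.46), with tumour 5 at 2054 and tumour 3 at 114.

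Among the 8 desaturases and elongases of the 36 genes no representative probe set rose and 1, that of Elovl5, fell. Scd1, the stearoyl-CoA desaturase that makes oleate, was at 31913, 10661, 33140, 18658, 29292 and 7020 in tumours 1 to 6 and 10532, 14016 and 18819 (lowest, median, highest) in normal lungs. Tumours 1, 3 and 5 lay above every normal lung and tumour 6 below every one. The mean difference did not pass (0.40 ± 0.35, adjusted p = 0.456), nor without tumour 6 (0.69, adjusted p = 0.0955). Scd2, its paralogue, showed a low value in tumour 2 only, at 5220 where the remaining tumours had 12181 to 20185, against 9244 to 13228 in normal lungs (0.14 ± 0.26, adjusted p = 0.746). Elovl5, an elongase of polyunsaturated chains, was the elongase that fell, with 4255, 6490 and 7960 in tumours and 7824, 9402 and 10906 in normal lungs. Only tumour 3 reached into the normal range (-0.63 ± 0.16, adjusted p = 0.00962), and both probe sets fell. The Elovl5 call was lost without normal lungs 2 and 4 (-0.55, adjusted p = 0.0673) and after centring arrays on their medians (-0.44, adjusted p = 0.0546). Elovl1, an elongase of very long chains, did not pass (0.27 ± 0.16, adjusted p = 0.265), and passed without tumour 6 (0.39, adjusted p = 0.0454). A dimmer Elovl1 probe set rose (0.77, adjusted p = 0.0458). Elovl3, an elongase known from brown fat and skin, did not pass either (-0.66 ± 0.25, adjusted p = 0.0734). Its signals were 55.8 to 92.4 in tumours and 73.9 to 232 in normal lungs, the highest value being that of normal lung 2. Without normal lung 5 it passed (-0.78, adjusted p = 0.0459). Elovl6, which elongates palmitate, was at 22.4, near the offset, in tumour 3 and at 554 in tumour 6, against 211 to 416 in normal lungs (-0.48 ± 0.49). The desaturases of polyunsaturated chains Fads1 (-0.39 ± 0.23) and Fads2 (-0.46 ± 0.29) did not pass, and tumour 2 was the lowest array for both, at 568 and 170.

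**Figure D2:**
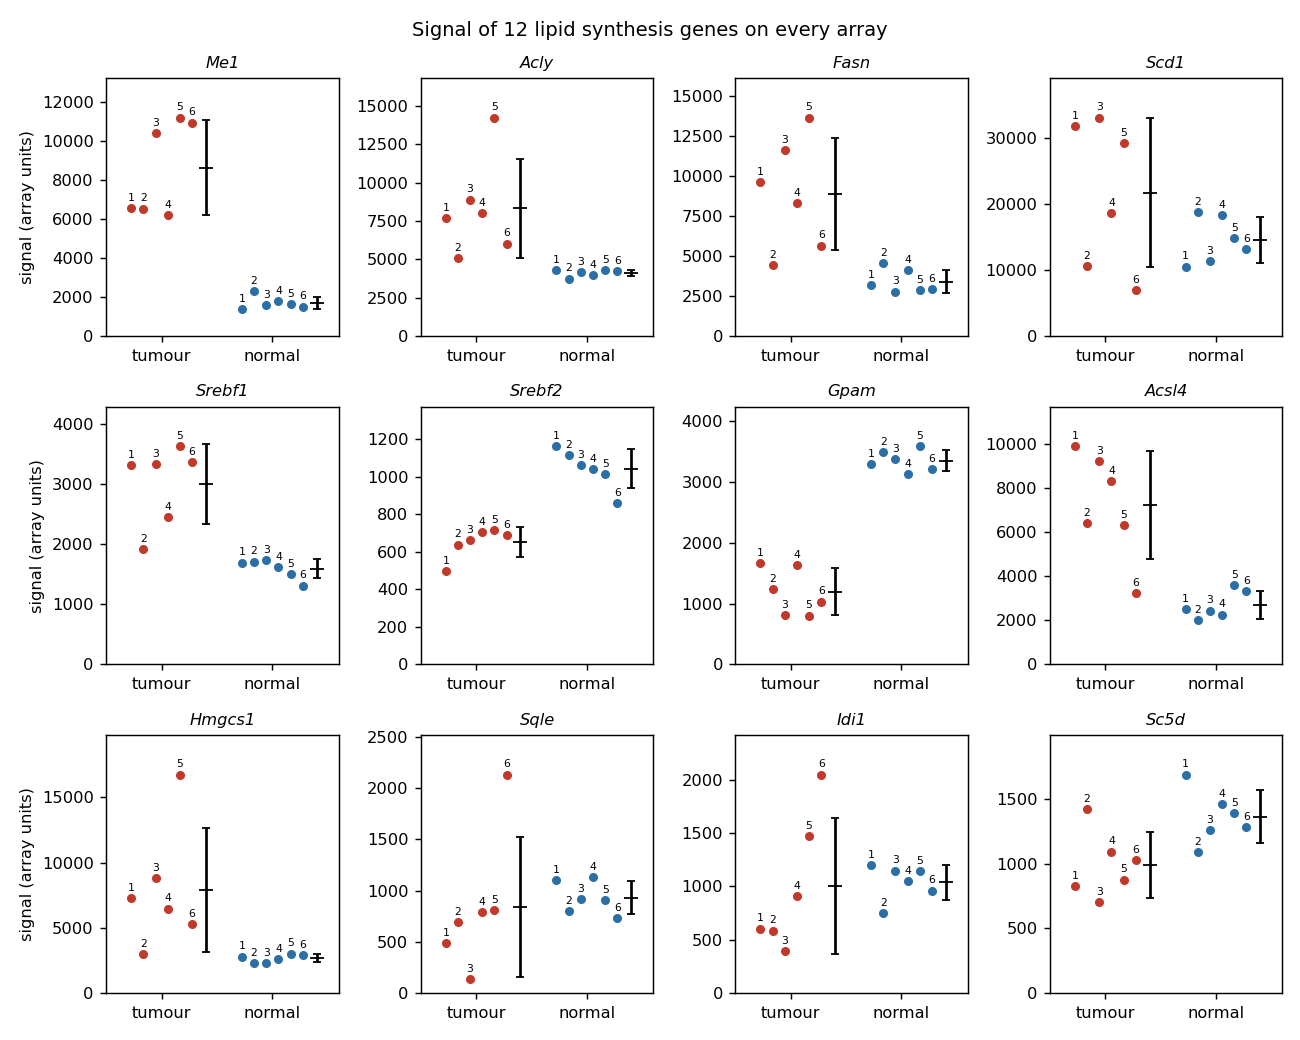
Signal of 12 genes on every array, tumours left in red and normal lungs right in blue, numbered by sample, with the mean and SD of each group as black bars (linear axes from 0). Me1 and Acly separate the groups, Gpam and Srebf2 separate them downwards, and Sqle and Idi1 are highest in tumour 6 and lowest in tumour 3.

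The acyl-CoA synthetases Acsl4 and Acsl5 rose, and Gpam, an enzyme of the first step of glycerolipid synthesis, fell. Acsl4, which activates arachidonate and related chains, had 3232, 7372 and 9916 in tumours and 2016, 2488 and 3587 in normal lungs. Tumour 6 was inside the normal range and the other tumours above it (1.36 ± 0.24, adjusted p = 6.29e-04). All 3 Acsl4 probe sets rose, by 1.36 to 2.07. With tumours 4 and 6 alone against normal lungs the difference was 0.97 (adjusted p = 0.0561). Acsl5, a synthetase of mitochondria and endoplasmic reticulum, had 6975, 8062 and 9921 in tumours and 4413, 4659 and 5154 in normal lungs. Its groups did not overlap (0.79 ± 0.11, adjusted p = 7.36e-05), and the tumours spread only 1.42-fold. Gpam, the mitochondrial glycerol-3-phosphate acyltransferase, fell to 805, 1136 and 1672 in tumours, against 3128, 3336 and 3590 in normal lungs. Each tumour lay below each normal lung (-1.53 ± 0.18, adjusted p = 1.51e-05), and the other probe set gave -1.68 ± 0.20. The acyltransferases that complete triglycerides, Dgat1 (0.21 ± 0.22, adjusted p = 0.546) and Dgat2 (0.11 ± 0.37, adjusted p = 0.875), did not pass. Normal lung 1 held the highest Dgat1 and Dgat2 signals of all 12 arrays, 1624 and 1339, and without it Dgat1 passed (0.45, adjusted p = 0.0144).

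The 2 SREBP genes moved in opposite directions. Srebf1, the gene of SREBP-1a and SREBP-1c, was at 1916, 3325 and 3630 in tumours and 1312, 1654 and 1734 in normal lungs. The groups did not overlap, with tumour 2 lowest of the tumours, and the means were 3002 ± 665 in tumours and 1594 ± 162 in normal lungs (SD, n = 6 each; 0.88 ± 0.15, adjusted p = 5.75e-04). This probe set does not tell the 2 isoforms apart. Srebf2, the gene of SREBP-2, was at 498, 677 and 715 in tumours and 862, 1051 and 1164 in normal lungs, again without overlap (-0.67 ± 0.12, adjusted p = 7.10e-04). Its other, dimmer probe set gave 0.27 ± 0.19 (adjusted p = 0.353), so the Srebf2 fall rests on 1 of 2 probe sets, and the mean of both did not pass (-0.20, adjusted p = 0.275). Scap, the escort of SREBPs, did not pass (-0.59 ± 0.21, adjusted p = 0.0546), with 705 to 926 in tumours 1, 3, 4 and 5. Tumours 2 and 6 had 1406 and 1806, against 1250 to 1912 in normal lungs. Without tumour 2 (-0.69, adjusted p = 0.0261) or tumour 6 (-0.76, adjusted p = 0.00472) Scap passed. Insig2, an endoplasmic reticulum anchor of Scap, rose in every tumour, to 1390, 1674 and 1831 in tumours, against 1084, 1166 and 1338 in normal lungs (0.44 ± 0.10, adjusted p = 0.00528). Of its 3 probe sets 1 did not pass (0.31, adjusted p = 0.132), and neither did the gene with Eif2s3y as a covariate (0.36, adjusted p = 0.0956) or with tumours 4 and 6 alone (0.40, adjusted p = 0.0582). Insig1, itself an SREBP target, averaged 492 ± 161 in tumours and 486 ± 95.4 in normal lungs (SD, n = 6 each; -0.03 ± 0.22, adjusted p = 0.940).

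In the sterol arm Hmgcs1 stood apart. Hmgcs1, the cytosolic HMG-CoA synthase that starts the mevalonate pathway and whose promoter window held the match to TCACNCCAC, had 7261, 2952, 8822, 6465, 16738 and 5261 in tumours 1 to 6. Normal lungs had 2299, 2694 and 3018 (lowest, median, highest). Tumour 2 lay inside the normal range and the other 5 tumours above it (1.38 ± 0.29, adjusted p = 0.00277), and all 5 probe sets rose. From highest to lowest the tumours ran 5, 3, 1, 4, 6 and 2 for Hmgcs1, which is the order found for Fasn and Acaca and for no other of the 36 genes.

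Among the later enzymes of the pathway no representative probe set rose. Mvk, the mevalonate kinase, averaged 184 ± 56.9 in tumours and 218 ± 98.4 in normal lungs (SD, n = 6 each; -0.12 ± 0.32). Mvd, which makes isopentenyl diphosphate, did not pass (0.63 ± 0.23, adjusted p = 0.0595), while its dimmer probe set rose (0.70 ± 0.20, adjusted p = 0.0171). Without tumour 3 or normal lung 5 the Mvd call was gained (adjusted p = 0.0240 and 0.0286). The isomerase Idi1 was at 602, 584, 395, 908, 1472 and 2046 in tumours 1 to 6 and 750, 1092 and 1194 (lowest, median, highest) in normal lungs (-0.26 ± 0.32, adjusted p = 0.613). Tumours 1, 2 and 3 lay below every normal lung and tumours 5 and 6 above. Fdps, the farnesyl diphosphate synthase, was highest in the same pair, at 2919 and 3304, against 597 to 1536 in normal lungs (0.45 ± 0.36, adjusted p = 0.413).

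Among the genes from squalene synthesis to cholesterol, some differed widely between tumours, and Sc5d, Nsdhl and Dhcr7 spread less, by 2.03-fold to 2.42-fold. Fdft1, the squalene synthase, was above the highest normal lung in every tumour but the first, with 739 to 2555 in tumours and 721 to 926 in normal lungs. It did not pass (0.57 ± 0.23, adjusted p = 0.0804), its second probe set rose (0.77 ± 0.24, adjusted p = 0.0259), and without tumour 1 the gene passed (0.71, adjusted p = 0.0234). Sqle, the squalene epoxidase, a rate-limiting step beyond squalene, was at 487, 694, 131, 788, 808 and 2133 in tumours 1 to 6, against 732, 911 and 1133 (lowest, median, highest) in normal lungs. Tumours thus differed 16.3-fold and normal lungs 1.55-fold, and the mean difference did not pass (-0.53 ± 0.44, adjusted p = 0.438). Cyp51, the lanosterol demethylase, had the same extremes, 196 in tumour 3 and 1477 in tumour 6, against 289 to 533 in normal lungs (0.11 ± 0.34). Lss, which closes the sterol rings, was highest in tumour 6 at 542 and lowest in tumour 1 at 119, against 206 to 279 in normal lungs (0.05 ± 0.28). Nsdhl, a decarboxylating sterol dehydrogenase, was below the lowest normal lung in 4 tumours and at 1439, above the highest, in tumour 6 (-0.22 ± 0.18). Dhcr7, the last reductase, did not pass (0.33 ± 0.20, adjusted p = 0.275). It was at 170 in tumour 2 and above the normal range of 207 to 303 in the other 5 tumours, and it passed without tumour 2 (0.50, adjusted p = 0.0250). Sc5d, the sterol C5 desaturase, fell by a small step (-0.47 ± 0.16, adjusted p = 0.0439), with 703, 954 and 1426 in tumours and 1090, 1338 and 1692 in normal lungs. Groups overlapped for this probe set, and the call was lost without any of tumours 1, 3, 5 and 6 or of normal lungs 1, 3, 4, 5 and 6, with adjusted p between 0.0521 and 0.0976. A dimmer Sc5d probe set fell without overlap (-1.30 ± 0.21, adjusted p = 2.74e-04).

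**Figure D3:**
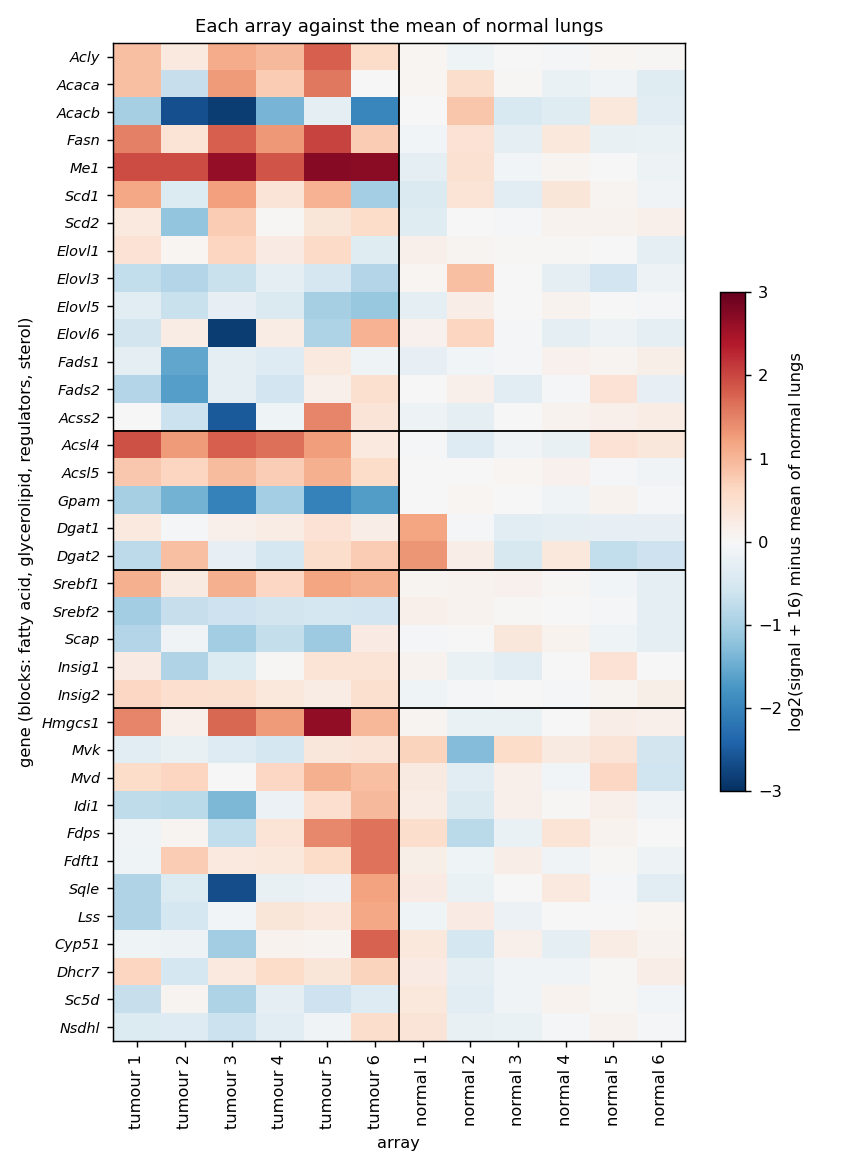
Each of the 36 genes on each array, as log2(signal + 16) minus the mean of the 6 normal lungs (red above, blue below; tumours left of the vertical line). Me1, Fasn, Acly and Hmgcs1 are red in tumours and Gpam, Acacb and Srebf2 blue, while most of the sterol block below Hmgcs1 is blue in tumour 3 and red in tumour 6.

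Set side by side, the arms had 3 of 14 fatty acid genes higher and 2 lower (35.7%), and 1 of 12 sterol genes higher and 1 lower (16.7%), against 29.6% of all genes. Median differences were -0.05 in the fatty acid arm and 0.08 in the sterol arm, against -0.08 over all genes. The arms therefore did not part by their medians: the fatty acid arm held larger changes in both directions, from -1.68 to 2.31, and the sterol arm changes from -0.53 to 1.38. Tumours varied more than normal lungs (a larger SD of log2 values) for 31 of the 36 genes (86.1%), as they did for 69.4% of all genes. The median SD was 0.57 in tumours and 0.23 in normal lungs for the 36, and 0.44 in tumours and 0.28 in normal lungs over all genes.

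The 6 tumours differed in which arm was high. In tumour 6, 10 of 12 sterol genes lay above the highest normal lung, where 25.2% of all genes did, and 1 lay below the lowest, where 34% did. The median deviation of its sterol arm from the mean of normal lungs was 0.99. Tumour 6 was the highest of the 6 tumours for 9 of 12 sterol genes. Of all 18193 genes it was the highest tumour for 3052 and the lowest for 3651. Its fatty acid arm had a median deviation of 0.20, with 4 genes (Scd1, Elovl1, Elovl3 and Elovl5) the lowest of all 12 arrays, 2 (Elovl6 and Fads2) the highest, and 7 above and 5 below the normal range. Tumour 3 had the same fatty acid median, 0.20, and a sterol median of -0.52. It was the lowest tumour for 7 sterol genes, 5 of which had tumour 6 highest, and for 2785 of all 18193 genes. Fdps, Sqle and Nsdhl shared the tumour order 6, 5, 4, 2, 1 and 3, highest first. In tumour 3, 5 of 12 sterol genes were below the lowest normal lung, where 30.8% of all genes were, and 3 above the highest, where 25.9% were, so these counts lay nearer the shares of all genes than those of tumour 6. Tumour 5 was high in both arms (0.47 and 0.36 for the fatty acid and sterol medians), with 9 of 14 fatty acid genes above the highest normal lung, where 27.3% of all genes were, and 2 below the lowest, where 31.8% were. Tumour 2 was low in the fatty acid arm (-0.65), where 8 of 14 genes were below the lowest normal lung, beside 34.2% of all genes in that tumour, and 2 above the highest, beside 25.1%. Its sterol median was -0.19. Tumours 1 and 4 had fatty acid medians of 0.14 and sterol medians of -0.22 and 0.21. In tumour 1, 2 of 12 sterol genes lay above the highest normal lung, where 22% of all genes did, and 5 below the lowest, where 31.8% did. In tumour 4 the sterol counts were 4 above, beside 23.6% of all genes, and 1 below, beside 30.4%. Among normal lungs the fatty acid medians ran from -0.15 to 0.31 and the sterol medians from -0.29 to 0.26, with normal lung 2 at both the highest fatty acid and the lowest sterol value.

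Marker levels of the same arrays were set beside these patterns. Tumours 2 and 6, which had the lowest Fasn, Acaca, Acly, Hmgcs1 and Scd1 of the tumours, also had the lowest mean log2 levels of type II cell markers, 13.12 and 12.87. Tumours 1, 3, 4 and 5 had 14.17 to 14.43, and normal lungs 13.10 to 13.32. Single markers differed: Sftpc was lowest in tumour 1 (31265), and Sftpb was higher in tumour 2 (31868) than in tumour 1 (27228). Other lipid genes differed too, with Elovl6 and Fads2 highest in tumour 6 among the tumours. For Me1 tumours 2 and 6 had 6535 and 10941, where tumour 4 was lowest at 6178, while on its other probe set tumour 2 was lowest at 3215. The 11 cell cycle genes had a mean log2 level of 10.43 in tumour 6, the highest of the 12 arrays. Tumours 1 to 5 had 9.14, 9.87, 9.79, 9.36 and 10.14, and normal lungs 8.24 to 8.71. The lowest of the tumours was tumour 1 for these genes and tumour 3 for the sterol arm. Tumours 4 and 6 were those with Xist. With them alone against normal lungs the median difference of the sterol arm was 0.68. Fdft1 (0.98, adjusted p = 0.0282) and Lss (0.77, adjusted p = 0.0481) then passed the test. This pair includes tumour 6, the highest for the sterol arm, so Xist and tumour 6 cannot be told apart here. The sterol medians were 0.99 in tumour 6 and 0.21 in tumour 4, and 0.36 in tumour 5, which had low Xist. Whether cell make-up, proliferation or sex has a part in the spread of sterol genes was not tested.

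**Figure D4:**
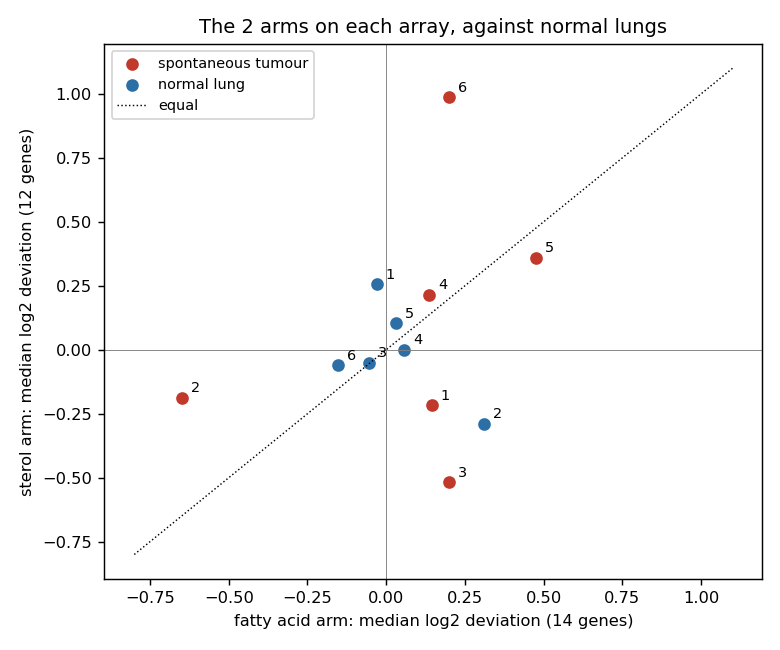
Median log2 deviation from the mean of normal lungs over the 14 fatty acid genes (horizontal) and the 12 sterol genes (vertical) on each array, red for tumours and blue for normal lungs, numbered by sample; the dotted line marks equal values. Tumour 6 lies highest for the sterol arm at 0.99, tumour 3 lowest at -0.52, and tumour 2 farthest left at -0.65.

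Other genes of lipid metabolism were counted from lists of pathway members. Over all genes 12.2% were higher and 17.5% lower, and no list was tested against these shares. Of 20 further genes of fatty acid synthesis 5 were higher and 2 lower (median -0.09). The rises included the chain elongation genes Elovl7 (2.08 ± 0.25), Hacd2 (0.62 ± 0.13) and Hsd17b12 (0.68 ± 0.15), and Slc25a1 (0.64 ± 0.12), the mitochondrial citrate carrier upstream of Acly. Of further acyl-CoA synthetases, Acsl3 rose (1.07 ± 0.25) and Acsl6 did not pass (0.14 ± 0.42). Thrsp, a lipogenic protein of liver and fat, was among the falls (-2.19 ± 0.63, with normal lung 2 highest at 1356), as was its relative Mid1ip1 (-1.01 ± 0.23). Of 7 further sterol synthesis genes only Tm7sf2, a sterol reductase, was called, upwards (0.99 ± 0.29, adjusted p = 0.0208), and the list's median was 0.02. Neither SREBP site protease, Mbtps1 (-0.09 ± 0.17) nor Mbtps2 (0.37 ± 0.15), passed.

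Of 13 genes of sterol uptake, transport and export 3 were higher and 2 lower (median 0.01). Npc2, a lysosomal cholesterol carrier, rose (0.81 ± 0.14), as did Ch25h, a cholesterol hydroxylase (0.82 ± 0.22), and Cyp27a1, the mitochondrial sterol hydroxylase, fell to 234 ± 29.6 in tumours, against 919 ± 179 in normal lungs (SD, n = 6 each; -1.89 ± 0.14, adjusted p = 4.07e-07). Scarb1, the HDL receptor, also fell (-0.43 ± 0.13). Of 18 genes of glycerolipid and phosphatidylcholine synthesis 5 were higher and 1 lower (median 0.12). Agpat2 (0.85 ± 0.15), Lpcat3 (0.85 ± 0.16) and Plin2, a lipid droplet coat protein (0.97 ± 0.20), rose, and Agpat4 fell (-2.04 ± 0.20, adjusted p = 4.14e-06). Fatty acid oxidation had 2 of 14 genes higher and 2 lower (median 0.05), with Cpt1a, which admits fatty acids to mitochondria, lower (-0.71 ± 0.13, adjusted p = 6.52e-04) and Acadl higher (0.63 ± 0.12, adjusted p = 9.10e-04).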

How the data were processed

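Each of the 12 samples (6 spontaneous tumours, 6 normal lungs) had its RNA measured on 1 Affymetrix array; each sample's group and number were read off its title. The authors deposited linear-scale signal intensity, 1 value for each probe set, computed with MAS5, which the submitters' processing notes name (per the labels); the settings are not given in the sources used here. The 2% trimmed mean was the same on all arrays, so the authors' scaling was kept. Array medians were 127 to 150 in tumours and 152 to 165 in normal lungs. Detection calls were not used here; 15.1% of values in tumours and 13.4% in normal lungs lay under the offset.

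Of 45101 probe sets 64 array controls were left out; symbols came from GEO's platform annotation, with 34945 probe sets carrying 1 symbol, 932 several and 9160 none listed. The model used log2(signal + 16); the offset understates changes where signals are dim. limma 3.58.1 under R 4.3.3 gave the fit, with an intensity trend and without covariates. All 36 genes are named, and other lipid genes by the smallest adjusted p or after their values were seen. Members and lists were chosen with earlier results of these data known. On simulated data with 200 changed of 45037 probe sets the fit recovered 76.2% of changes of 2 log2 units and 40.4% of changes of 1; of the unchanged probe sets it called 5. The simulation gave both groups the same SD, and in the data many more genes were called (29.6%). Its rates therefore do not measure the power of the comparison made here. Same-numbered arrays did not deviate together. Alternatives were other offsets, scalings, filters, weights, probe set choices, a replicate block, Eif2s3y as a covariate and left-out arrays. Tables and plots used pandas 2.3.3, numpy 2.4.6, matplotlib 3.10.9 and Python 3.11.15.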

Additional observations from a re-analysis of the deposited data

Results flagged for a closer look

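In 5 of 72 gene and group pairs 1 array stood far from the other 5, by the ratio of its gap to the group's whole range on the log2 scale against Dixon's 95% critical value for 6 samples; chance gives about 1 in 20, or 3.6 of 72. Tumour 2 was the low array for Scd2 (5220 against 12181 in the next tumour, ratio 0.626), Fads1 (568 against 1305, ratio 0.638) and Dhcr7 (170 against 312, ratio 0.682). Tumour 1 was low for Srebf2 (498 against 639, ratio 0.687). Normal lung 1 was high for Dgat1 (1624 against 681 in the next normal lung, ratio 0.809).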

How the results depend on the processing

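Of 13 called genes 6 (Fasn, Me1, Acsl5, Gpam, Srebf1 and Hmgcs1) kept their direction and stayed past the threshold under all 25 alternatives, which were set with earlier results of these data known. Over the 36 genes, 848 of 900 values kept their side of the threshold, 23 lost the call and 29 gained it. None reversed, which was counted only where the gene passed in the main fit or the alternative. Differences of some genes that did not pass changed sign, such as Fdps (0.45, down to -0.82) and Sqle (-0.53, up to 0.49). The -0.82 came from an Fdps probe set with a mean signal of 14.1, under the offset, where the representative one had 1423. Centring arrays on their medians moved the median difference of all genes from -0.08 to 0.11 and the share of calls that were higher in tumours from 41.1% to 59.9%; 3 of the 36 genes were then lower, the fatty acid arm had 5 higher and 1 lower, and the sterol arm 3 higher and 0 lower. Over all genes 2216 were higher and 3176 lower, against 3498 and 2341 after centring and 1320 and 2167 with Eif2s3y as a covariate. Excluding normal lungs 2 and 4, and likewise with Eif2s3y as a covariate, 3 of the 36 genes were lower, 1 in the fatty acid arm and 0 in the sterol arm. The sterol arm had 2 genes higher after quantile normalization (46.5% of all calls higher), with a mean signal of at least 50, with the probe set of largest interquartile range, with the mean of all probe sets and with Eif2s3y as a covariate. It had 3 higher and 0 lower when tumours 1, 2, 3 and 5 were excluded, and 0 lower with no intensity trend and with the replicate block. The sterol arm's median difference was 0.68 without those 4 tumours and 0.63 with the covariate. Leaving out 1 array gave 8 to 10 genes higher and 4 to 6 lower; the fatty acid arm had 3 to 4 higher and 2 to 3 lower with medians of -0.15 to 0.11, and the sterol arm 1 to 2 higher and 0 to 1 lower with medians of -0.19 to 0.21. Deviations of same-numbered arrays correlated at -0.02 to 0.02. These correlations alone cannot decide whether the numbers pair the samples, as samples of the same animal need not deviate together. Xist was at 109 or less in tumours 1, 2, 3 and 5 and at 7877 or more in every normal lung. For the Y-linked Eif2s3y, signals in the same tumours ran from 740.5 to 1638.2, and the highest normal lung had 27.4. By these sex-linked genes, numbers 1, 2, 3 and 5 do not join a tumour and a normal lung of the same animal. Tumours 4 and 6 had Xist and little Eif2s3y, like the normal lungs, so pairing stays undecided for these numbers. The block changed no call but that of Sc5d (adjusted p = 0.0885). Genes with several probe sets numbered 28, of which 8 had probe sets on different sides of the threshold and 0 had calls in opposite directions. The cause of these shifts was not tested. Low signal limits Elovl3, Acacb in tumours (23.2 at the lowest) and Elovl6 in tumour 3 (22.4).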
